A study of Mus musculus with 23 samples.

Results

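The comparison was between sciatic nerves (SNs) of wild-type mice 3 days post crush (dpc) and uncrushed SNs. It took the 4 libraries labelled as crush-injured nerve and the 3 libraries labelled as uncrushed surgery control, 7 of the 23 samples in the series. All 7 nerves came from wild-type mice labelled as C57bl6, and the study's methods describe 2-month-old males. In the crushed group, the nerve of one side was compressed 3 times for 10 seconds each at the sciatic notch, buprenorphine was given around surgery, and a piece from 1 to 8 mm distal to the injury was taken 3 days later. How the uncrushed nerves were exposed or treated was not described in the methods, although the labels call them surgery controls. The series also holds 4 contralateral nerves of wild-type crushed mice, given here only beside the main values, and 12 nerves of inducible Dicer and Dgcr8 mutants and their controls, which were not used here. The question of the comparison was how the RNA of a nerve changes distal to an injury.

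In an intact nerve, Schwann cells (SCs) wrap axons in myelin, a stack of membrane rich in cholesterol and galactolipids. After a crush, axons distal to the lesion degenerate, SCs stop making myelin, divide and turn into repair cells that secrete trophic factors and chemokines, and macrophages enter to clear debris. A total RNA library reads these changes from all cells of the nerve at once, and it also holds RNAs that code for no protein. These include long non-coding RNAs, small nuclear and nucleolar RNAs that guide splicing and RNA modification, Y RNAs, and the transfer RNAs of mitochondria. In such bulk samples fewer cells of a type and less RNA per cell cannot be told apart.

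Values are given as CPM, counts relative to the library total, scaled by the TMM method over the 7 libraries, and a level compares libraries for the same gene only. Total counts were 9512316 to 12072033 in crushed libraries and 6617716 to 12252564 in uncrushed ones, so that 3 counts of a library amounted to 0.245 to 0.453 CPM. This limit covers counting error only. The SC marker Sox10 was present in every library, at 99.5 to 212 CPM. A gene was taken as upregulated or downregulated where it changed at least 2-fold (1 on the log2 scale) with an adjusted p of at most 0.05 in edgeR's quasi-likelihood test, and is then said to be called. Errors of log2 fold changes are standard errors (SE), and those of levels are SDs over 4 crushed and 3 uncrushed nerves.

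Of 43068 genes listed, 17433 passed the filter on low counts. Among them, 2673 (15.3%) were upregulated and 3686 (21.1%) downregulated in crushed SNs. The groups did not overlap for 11477 genes (65.8%). Protein-coding and non-coding RNA genes differed in direction. Of 14343 protein-coding genes tested, 2501 (17.4%) were upregulated and 2449 (17.1%) downregulated, with a median log2 fold change of 0.12. Of 2383 non-coding RNA genes, 102 (4.28%) were upregulated and 953 (40.0%) downregulated, with a median of -0.86. The 564 pseudogenes tested followed the non-coding genes, with 62 (11%) upregulated and 228 (40.4%) downregulated. Against contralateral nerves, which share the crushed libraries with the main comparison, 2256 of 13935 protein-coding genes (16.2%) were upregulated and 1884 (13.5%) downregulated, while 114 of 2138 non-coding RNA genes (5.33%) were upregulated and 333 (15.6%) downregulated. The methods describe contralateral nerves as the uninjured side of the crushed mice. No fit that used them paired the sides of a mouse, here or below.

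**Figure D1:**
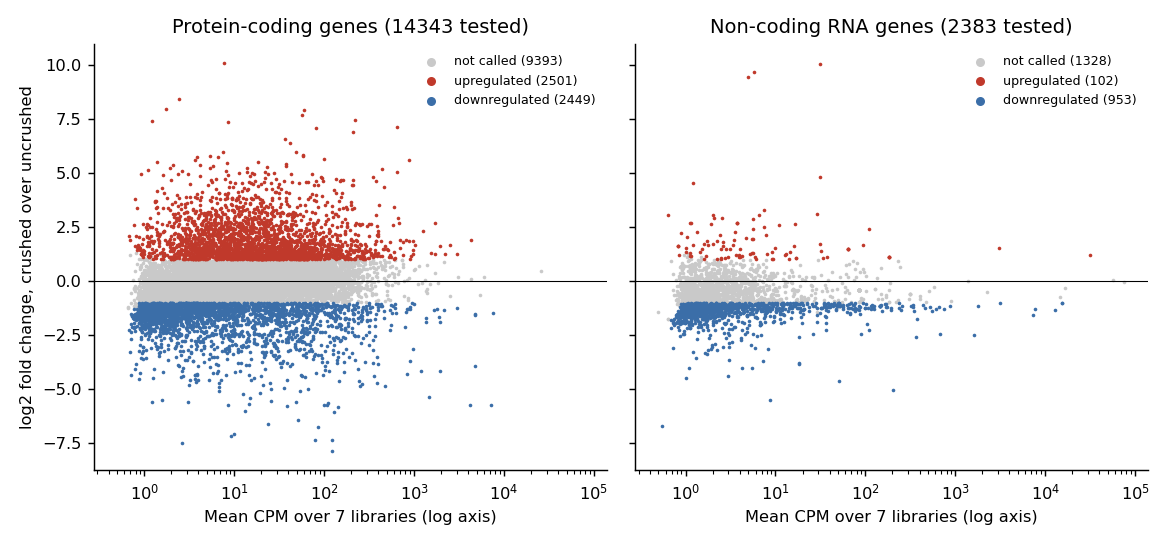
Log2 fold change (crushed minus uncrushed) of each tested gene against its mean level over the 7 libraries (CPM, log axis), with protein-coding and non-coding RNA genes in separate panels and called genes in colour. The protein-coding cloud spreads to both sides of 0 (2501 genes up, 2449 down), while the non-coding cloud lies mostly below 0 (102 up, 953 down).

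The myelin genes had the lowest median of the gene lists examined. Of 19 myelin sheath genes, all tested, 16 were downregulated and 1 was upregulated, with a median log2 fold change of -3.50 beside 0.12 for all protein-coding genes. Pmp22 encodes a membrane protein of compact myelin. It was at 229, 176, 155 and 149 CPM in the 4 crushed libraries and at 9572, 9811 and 9067 CPM in the 3 uncrushed ones, a log2 fold change of -5.74 ± 0.19 (adjusted p = 2.4e-10, edgeR). Prx, which links the sheath to the basal lamina side of the SC, was at 65.2 to 113 CPM against 3051 to 3461 CPM (-5.35 ± 0.20). The largest loss of the list was that of Ncmap, a non-compact myelin protein, from 277 to 305 CPM down to 3.36 to 5.39 CPM (-6.06 ± 0.14). Crushed and uncrushed libraries were far apart for each of these genes.

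Not every gene of the sheath followed. Gldn, which clusters sodium channels at nodes, was at 238 to 323 CPM against 217 to 259 CPM (0.23 ± 0.12) and was not called. Gjb1, the connexin of non-compact myelin, was upregulated from 40.4 to 41.9 CPM to 115 to 199 CPM (1.77 ± 0.18). Crushed replicate 1 held the highest level of all 4 crushed libraries for Pmp22, Prx, Ncmap and Gjb1.

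The SC transcription factors moved less. Of 14 tested, 4 were upregulated and 1 downregulated (median 0.43). Egr2, the master regulator of myelination, was downregulated from 88.0 to 117 CPM to 16.4 to 18.9 CPM (-2.59 ± 0.12). Sox10, which defines the SC lineage, was lower in every crushed library, at 99.5 to 141 CPM against 200.3 to 212 CPM, and stayed under the 2-fold limit (-0.84 ± 0.12). Against contralateral nerves it was called (-1.29). The upregulated factors were Sox2 (2.64 ± 0.17) and Id2 (2.64 ± 0.26), which mark immature SCs, Pou3f1 (2.04 ± 0.16), the factor of the promyelinating stage, and Id4 (1.25 ± 0.21).

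Genes that mark repair SCs were mainly upregulated. Of 17 tested, 12 were upregulated and 1 downregulated (median 2.96). This list is taken from what is known of injured nerves, and its direction here is not independent of that knowledge. Shh, a morphogen that intact SCs do not make, was at 490, 340, 367 and 330 CPM in crushed nerves and at 2.57, 1.34 and 2.40 CPM in uncrushed ones (7.48 ± 0.24, adjusted p = 2.3e-10, edgeR). Btc, a ligand of the epidermal growth factor receptor, was at 97.8 to 122 CPM against 0.244 to 0.531 CPM (7.90 ± 0.20). The uncrushed values of Btc lay at or near the limit of 3 counts. Gdnf, a survival factor for motor neurons, was at 80.6 to 145 CPM against 1.22 to 3.21 CPM (5.82 ± 0.32). Fosl1 (5.50 ± 0.25) and Jun (2.96 ± 0.14), subunits of the AP-1 transcription factor, were both upregulated. Cdh2, an adhesion molecule of SCs, was the downregulated gene (-1.37 ± 0.11). Gfap, an intermediate filament gene often used as a marker of repair SCs, was not called (0.83), although it was against contralateral nerves (1.46) and without the filter on low counts (1.06).

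**Figure D2:**
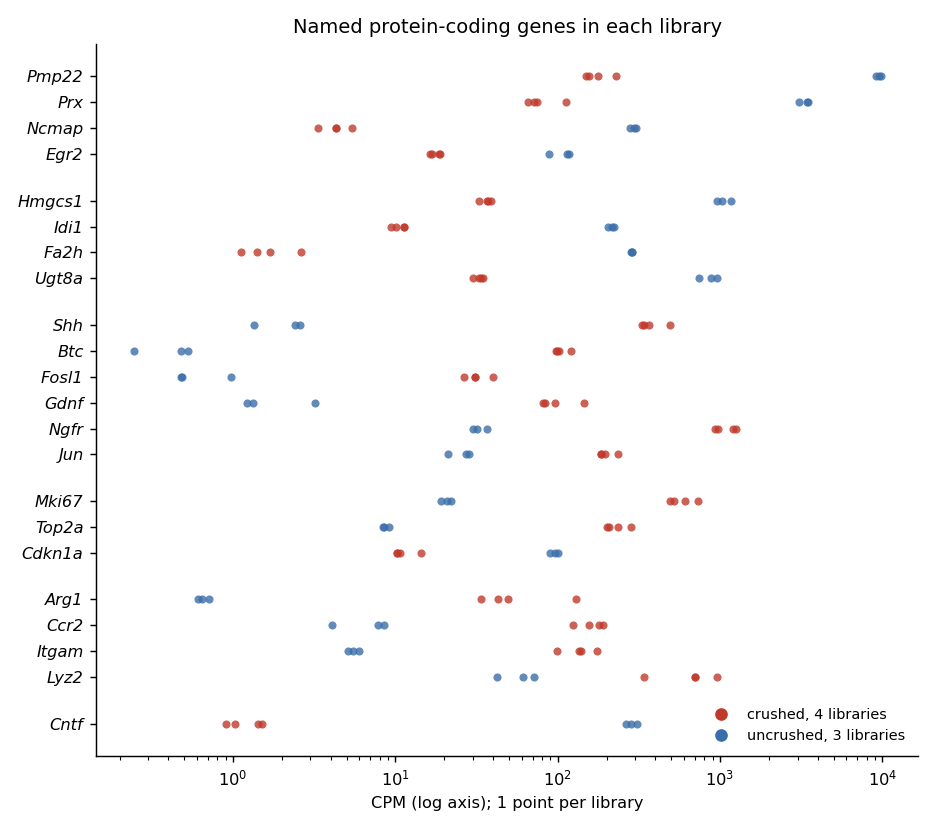
Level of selected protein-coding genes in each library (CPM on a log axis), with 4 crushed and 3 uncrushed libraries as points. The groups do not overlap for any gene drawn, with crushed nerves lower for Pmp22 and Hmgcs1 and higher for Shh, Ngfr and Mki67.

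Trophic ligands and their receptors changed in both directions. Of 13 ligand genes tested, 6 were upregulated and 3 downregulated. Cntf, a cytokine that myelinating SCs store, fell from 306, 265 and 282 CPM to 1.52, 0.905, 1.03 and 1.42 CPM (-7.86 ± 0.15), the largest fall of any protein-coding gene named by the rule. Clcf1, a cytokine of the same family that acts on the same receptor complex, rose from 0.801 to 1.15 CPM to 111 to 210 CPM (7.11 ± 0.33). Their shared receptor chain Cntfr fell from 3.04 to 4.07 CPM to 0.610 to 1.18 CPM (-1.92 ± 0.30), while the signalling chain Il6st rose from 174 to 190 CPM to 489 to 529 CPM (1.45 ± 0.10). Among fibroblast growth factors, Fgf5 was upregulated (4.72 ± 0.36) and Fgf2 downregulated (from 52.3 to 68.4 CPM down to 19.4 to 23.3 CPM). Bdnf, near the limit, was not called (-0.85 ± 0.46), except when uncrushed replicate 1 was left out (-1.17).

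Of 13 receptor genes tested, 3 were upregulated and 3 downregulated. Ngfr, the low-affinity neurotrophin receptor, was at 1261, 974, 1207 and 927 CPM in crushed nerves and at 32.0, 30.0 and 36.9 CPM in uncrushed ones (5.05 ± 0.17). Gfra1, the receptor chain that binds Gdnf, rose from 128 to 152 CPM to 930 to 1136 CPM (2.90 ± 0.13). The neuregulin receptor gene Erbb4 (-3.23 ± 0.15) and Ntrk3, the receptor for neurotrophin 3 (-2.40 ± 0.14), were downregulated. Erbb2 (-0.06) and Erbb3 (-0.47), the neuregulin receptor chains of SCs, were not called.

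Lipid genes were divided between synthesis and handling. Of 24 genes of sterol synthesis and its control, all tested, 23 were downregulated (median -2.96). Hmgcs1, an enzyme early in the pathway, fell from 954, 1173 and 1035 CPM to 38.9, 36.7, 37.1 and 32.8 CPM (-4.86 ± 0.12, adjusted p = 6.5e-11, edgeR). Idi1, an isomerase that acts further along, was at 9.35 to 11.3 CPM against 203 to 223 CPM (-4.35 ± 0.11). Ebp, an isomerase late in the pathway, was the member not called, at 13.3 to 17.8 CPM against 13.8 to 15.4 CPM (0.14 ± 0.13).

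Of 21 genes of fatty acid and sphingolipid synthesis, 14 were downregulated (median -1.42), and the other 7 were not called. The largest changes were in enzymes that build the galactolipids of myelin. Fa2h, which hydroxylates their fatty acid, fell from 285 to 287 CPM to 1.12 to 2.61 CPM (-7.37 ± 0.18). Ugt8a, which adds the galactose, fell from 738 to 955 CPM to 30.0 to 34.7 CPM (-4.71 ± 0.13), and Gal3st1, which makes sulfatide from the product, fell as well (-2.92 ± 0.16). Elovl6, a fatty acid elongase, was at 36.3 to 52.0 CPM against 358 to 482 CPM (-3.32 ± 0.15). Srebf1 (-0.31), a transcription factor of this pathway, was not called, while Srebf2 (-2.19), its counterpart in sterol synthesis, was downregulated.

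Of 15 genes for lipid uptake, storage and efflux, 8 were upregulated and 1 was downregulated (median 1.44). Abca1, the pump that exports cholesterol, was at 1500, 1613, 1607 and 1357 CPM in crushed nerves and at 29.9, 30.2 and 32.2 CPM in uncrushed ones (5.63 ± 0.14). Soat1, which esterifies cholesterol for storage, rose from 18.6 to 21.5 CPM to 146 to 186 CPM (3.04 ± 0.13). The scavenger receptor gene Msr1 (3.62 ± 0.33) and the lipid droplet gene Plin2 (3.06 ± 0.33) had larger errors than Abca1. Both were lowest in crushed replicate 1, as was the summed level of the macrophage markers. The part of macrophages in these values was not tested.

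The promoters of 2 sterol genes and 2 cell cycle genes are given below, because both lists moved almost as a whole and in opposite directions. Each runs from 250 bases before to 50 bases after the start of the RefSeq transcript (GRCm38.p6), read on the gene's strand. Capitals mark CCAAT, the core letters of the box that the factor NF-Y binds, on either strand (ATTGG when read on the other), and TCACCCCAC, a sterol regulatory element, on either strand.
Hmgcs1 (chr13:119690101-119690400, plus strand): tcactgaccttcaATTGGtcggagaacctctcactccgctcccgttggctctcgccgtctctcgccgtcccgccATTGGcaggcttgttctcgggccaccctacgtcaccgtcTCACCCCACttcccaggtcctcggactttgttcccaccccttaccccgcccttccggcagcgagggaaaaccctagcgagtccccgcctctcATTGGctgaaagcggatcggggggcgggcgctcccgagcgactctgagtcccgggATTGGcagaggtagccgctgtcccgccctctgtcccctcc
Idi1 (chr13:8885356-8885655, plus strand): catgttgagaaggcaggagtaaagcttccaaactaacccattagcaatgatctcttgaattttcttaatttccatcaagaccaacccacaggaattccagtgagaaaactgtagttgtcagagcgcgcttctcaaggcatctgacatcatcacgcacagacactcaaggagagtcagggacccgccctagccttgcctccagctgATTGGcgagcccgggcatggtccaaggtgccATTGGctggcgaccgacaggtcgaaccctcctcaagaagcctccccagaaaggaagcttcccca
Ccnb2 (chr9:70421505-70421804, minus strand): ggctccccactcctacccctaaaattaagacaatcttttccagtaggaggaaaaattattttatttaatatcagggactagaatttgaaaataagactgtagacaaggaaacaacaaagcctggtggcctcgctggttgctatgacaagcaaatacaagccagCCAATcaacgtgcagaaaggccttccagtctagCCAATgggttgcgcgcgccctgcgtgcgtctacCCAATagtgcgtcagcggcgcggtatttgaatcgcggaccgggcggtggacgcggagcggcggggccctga
Cdk1 (chr10:69352863-69353162, minus strand): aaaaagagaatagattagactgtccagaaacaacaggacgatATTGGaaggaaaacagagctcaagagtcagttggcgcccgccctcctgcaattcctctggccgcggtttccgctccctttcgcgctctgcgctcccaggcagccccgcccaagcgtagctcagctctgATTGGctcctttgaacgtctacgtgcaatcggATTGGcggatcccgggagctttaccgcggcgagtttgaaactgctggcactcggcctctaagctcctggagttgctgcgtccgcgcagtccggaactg

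CCAAT stood in 16 of 20 promoters of the sterol list (80.0%, 17 of 24 genes matched) and in 24 of 27 promoters of the cell cycle list (88.9%, 25 of 32 genes matched). It stood in 12289 of 32851 promoters in all (37.4%) and in 4 of 21 promoters of the repair SC list. The letters thus occurred in most promoters of a list that fell and of a list that rose. Among all upregulated protein-coding genes 36.4% of promoters held them, and among downregulated ones 38.6%. TCACCCCAC stood in 0.551% of all promoters, in 1 of 20 of the sterol list (Hmgcs1), in 1 of 21 of the repair SC list (Gfap) and in 0 of 27 of the cell cycle list. A match of letters is a description of the sequence and does not show binding.

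Genes of the cell cycle rose almost as a whole. Of 32 genes of DNA replication and mitosis, all tested, 31 were upregulated (median 3.71). Mki67, a marker of dividing cells, was at 495, 727, 608 and 523 CPM in crushed nerves and at 20.7, 19.02 and 21.95 CPM in uncrushed ones (4.84 ± 0.17, adjusted p = 3.9e-10, edgeR). Top2a, the topoisomerase that untangles DNA before division, rose from 8.41 to 9.13 CPM to 201 to 282 CPM (4.74 ± 0.16). The mitotic motors Kif11 (4.62 ± 0.19) and Kif20a (4.62 ± 0.22) changed by nearly the same amount. Tyms, which makes thymidylate, was the exception, at 113 to 172 CPM in crushed and 212 to 308 CPM in uncrushed nerves (-0.91 ± 0.15). Its value lay at the limit and passed it in 5 of the other settings, for example without crushed replicate 4 (-1.05).

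The inhibitors of cyclin-dependent kinases split by family. All 3 genes of the Cip/Kip family were downregulated. Cdkn1a was at 14.3, 10.7, 10.2 and 10.3 CPM against 95.7, 99.9 and 89.3 CPM (-3.06 ± 0.12), Cdkn1c fell by a like amount at a lower level (-3.08 ± 0.24), and Cdkn1b was at 35.7 to 39.6 CPM against 142 to 155 CPM (-1.99 ± 0.09). Of the 4 genes of the Ink4 family, Cdkn2a (1.86), Cdkn2b (1.77) and Cdkn2c (2.23 ± 0.21) were upregulated and Cdkn2d (0.63) was not called.

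Of 24 macrophage markers, all tested, 22 were upregulated (median 2.51). Their summed level was 1444, 2956, 2347 and 2485 CPM in the 4 crushed libraries and 390, 348 and 394 CPM in the 3 uncrushed ones. Ccr2, the chemokine receptor of inflammatory monocytes, was at 123 to 191 CPM against 4.07 to 8.49 CPM (4.64 ± 0.24). Itgam, an integrin of myeloid cells, rose to a like degree (4.62 ± 0.21). Arg1, an enzyme of macrophages that take part in repair, was at 33.8, 130, 43.1 and 49.3 CPM against 0.609 to 0.709 CPM, with crushed replicate 2 far above the other three (6.58 ± 0.66). Gpnmb, a gene of lipid-laden macrophages, was at 54.5 to 170 CPM against 7.44 to 10.4 CPM (3.53 ± 0.36). Cd163, a marker of resident macrophages (0.35 ± 0.18), and Mertk, a receptor for dying cells (0.59 ± 0.10), were not called.

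Markers of other leukocytes were sparse. Of 14 neutrophil markers 6 could be tested, and S100a8 and S100a9 were among the 8 that were too low. Retnlg (7.37 ± 0.60), at 9.43 to 23.1 CPM against 0 to 0.177 CPM, and Mmp9 (3.86 ± 0.29) were upregulated, while Cxcr2 (-1.02 ± 0.13) and Lcn2 (-2.02 ± 0.38) were downregulated. Of 16 lymphocyte markers 5 could be tested, and 4 of these were downregulated. The 5 had a median level of 1.49 CPM. Of all protein-coding genes under 2 CPM that passed the filter, 729 of 1710 (42.6%) were downregulated. The summed level of all 16 was 8.67 to 10.5 CPM in crushed and 15.7 to 23.1 CPM in uncrushed nerves. The 4 were Cd3d, Cd247, Cd8a and Ms4a1, of which Cd8a (-0.41) and Ms4a1 (-0.71) were not called against contralateral nerves. The call of Cxcr2 was lost without crushed replicate 2 (-0.997), uncrushed replicate 1 (-0.95) or uncrushed replicate 3 (-0.92), and against contralateral nerves (-0.53).

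Of 19 chemokine and cytokine genes tested, 16 were upregulated and 1 downregulated (median 2.66). Ccl2, which draws monocytes, was at 55.4, 67.3, 62.4 and 75.3 CPM in crushed nerves and at 1.42, 2.32 and 0.641 CPM in uncrushed ones (5.42 ± 0.23). Its close relative Ccl7 rose from 0.854 to 1.15 CPM to 15.3 to 20.8 CPM (4.14 ± 0.21), and Ccl6 from 9.65 to 10.9 CPM to 174 to 353 CPM (4.63 ± 0.23). Cxcl14 had the largest change of the list (5.96 ± 0.25). Unlike Ccl6, it was highest in crushed replicate 1. Cxcl12, a chemokine of stromal cells, was the one downregulated (-1.08 ± 0.15), a call that was lost without uncrushed replicate 1 (-0.80).

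**Figure D3:**
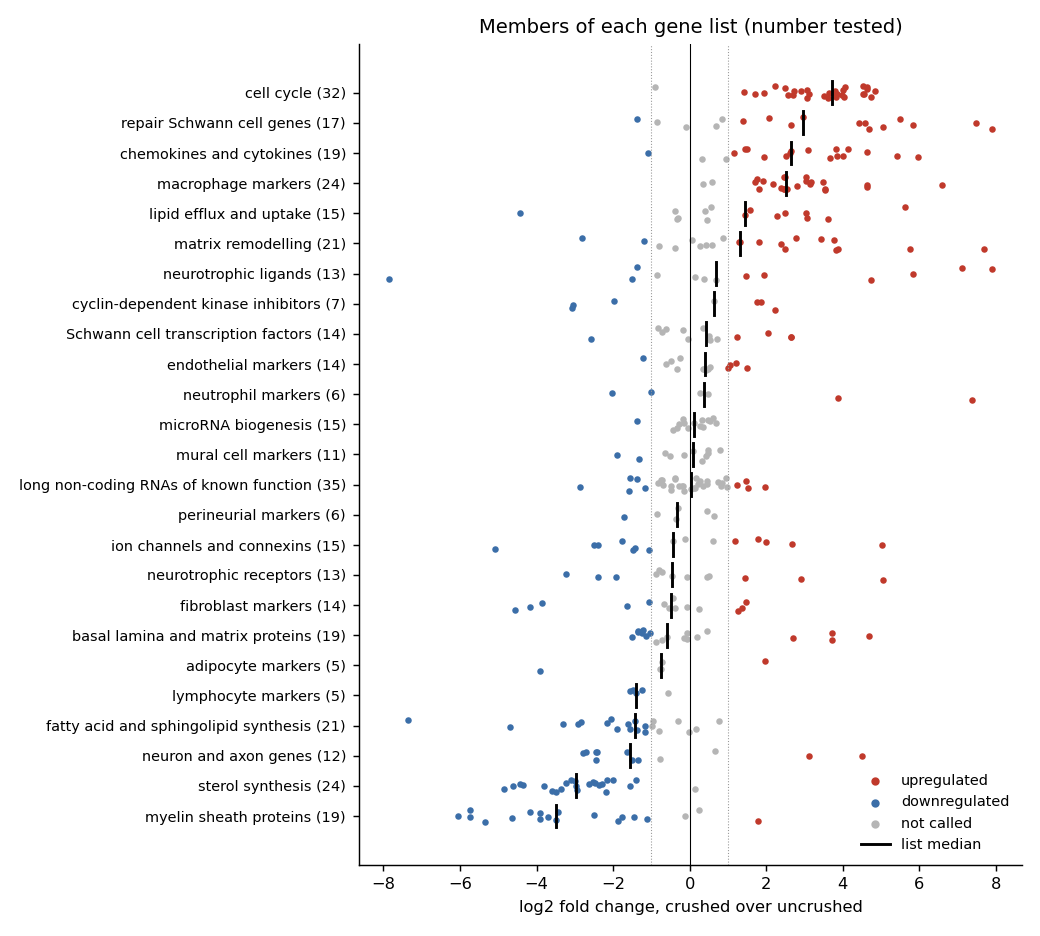
Log2 fold changes (crushed minus uncrushed) of the tested members of each gene list, 1 point per gene, for lists with at least 5 members tested, with the list's median as a bar and the 2-fold limits as dotted lines. Myelin (median -3.50) and sterol synthesis (-2.96) lie to the left, and the cell cycle (3.71), repair SC genes (2.96) and chemokines (2.66) to the right.

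Enzymes of the extracellular matrix and matrix proteins moved differently. Of 21 genes of matrix remodelling tested, 12 were upregulated and 2 downregulated (median 1.32). Timp1, an inhibitor of metalloproteinases, rose from 0.531, 0.366 and 0.481 CPM to 102, 99.7, 96.2 and 96.9 CPM (7.69 ± 0.16). The receptor of urokinase, Plaur, was at 9.25 to 12.7 CPM against 0.0886 to 0.321 CPM (5.76 ± 0.32), the last values being at or under the limit. Adam8, a metalloproteinase of leukocytes, was upregulated (3.83 ± 0.41), and the membrane metalloproteinase Mmp15 was downregulated (-2.81 ± 0.11). Of 19 basal lamina and matrix proteins, 4 were upregulated and 7 downregulated (median -0.59). The upregulated ones were Tnc (4.69 ± 0.22), Postn (3.71 ± 0.20), Thbs1 (3.71 ± 0.36) and Fn1 (2.69 ± 0.17), proteins of wound matrix. The laminin chain Lama2, a core part of the SC basal lamina, was at 129 to 181 CPM against 434 to 514 CPM (-1.52 ± 0.13).

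Genes of other nerve cells changed in part. Among all protein-coding genes tested, 17.4% were upregulated and 17.1% downregulated. Of 14 endothelial markers tested, 4 were upregulated and 1 downregulated (median 0.39), Cdh5 most (1.496 ± 0.14). Of 11 mural cell markers, 2 (18.2%) were called, and Tagln (-1.89 ± 0.14) and Kcnj8 (-1.33) both fell. This share was near that of all protein-coding genes, and the median of the list was 0.07. Of 14 fibroblast markers, 3 were upregulated and 5 downregulated. Mfap5 and Ogn, matrix genes of the nerve's outer layers, fell from 221 to 268 CPM to 10.6 to 17.7 CPM (-4.18 ± 0.16) and from 836 to 881 CPM to 51.5 to 66.9 CPM (-3.85 ± 0.12), and the collagen gene Col1a2 fell from 1320 to 1494 CPM to 665 to 695 CPM (-1.06 ± 0.10), a call that was lost without uncrushed replicate 1 (-0.98). The collagen genes Col1a1 (-0.45) and Col3a1 (-0.54), lower in every crushed library, stayed under the 2-fold limit. The upregulated markers were Pi16 (1.46 ± 0.31), Fbln2 (1.37 ± 0.14) and Fbln1 (1.25 ± 0.28). Of 6 perineurial markers only the integrin gene Itgb4 was called (-1.72), a share of 16.7% that was also near that of all protein-coding genes. Of 14 skeletal muscle markers 12 were too low to test. The other 2 were downregulated, Ttn, which encodes titin, from 36.1 to 60.9 CPM to 14.7 to 24.0 CPM (-1.34 ± 0.20) and Actn3 from 5.61 to 9.29 CPM to 0.280 to 1.01 CPM (-3.69 ± 0.34). Against contralateral nerves Ttn was not called (-0.77). Both genes made up most of the summed level of the list, which was 18.8 to 27.6 CPM in crushed and 49.6 to 78.7 CPM in uncrushed nerves. Of 12 adipocyte markers, 5 were tested, with Fabp4 upregulated (1.97) and Plin4 downregulated (-3.91). Of 8 mast cell markers, 2 were tested, with Hdc downregulated (-1.18) and Kit not called (0.01). The call of Fabp4 was lost without uncrushed replicate 2 (1.61), and that of Hdc without crushed replicate 2 (-0.95) and against contralateral nerves (-0.47).

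A nerve holds few neuronal RNAs, because the cell bodies lie outside it. Of 12 neuron and axon genes tested, 8 were downregulated and 2 upregulated (median -1.57). The neurofilament gene Nefh was at 3.76 to 4.46 CPM against 21.6 to 32.0 CPM (-2.71 ± 0.16), and Prph, another neuronal intermediate filament, was at 0.421 to 1.59 CPM against 3.37 to 6.82 CPM (-2.79 ± 0.39). Tubb3, a tubulin used as a neuronal marker, rose from 1.44 to 3.29 CPM to 48.1 to 58.9 CPM (4.49 ± 0.19), and Thy1 rose as well (3.11 ± 0.26). Of 15 ion channel and connexin genes, 7 were downregulated and 5 upregulated. The potassium channels Kcnk1 (-5.10 ± 0.11) and Kcna2 (-2.40 ± 0.10) and the sodium channel Scn7a (-2.49 ± 0.12) fell, and the water channel Aqp1 rose from 0.732 to 0.886 CPM to 22.3 to 34.1 CPM (5.02 ± 0.24).

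Outside the lists, the largest changes included Hist1h2ah, a replication-dependent histone gene, which was at 7.38 to 22.2 CPM in crushed libraries and 0 in all 3 uncrushed ones. Against the limit of 3 counts over the uncrushed group it was at least 127-fold higher. Lgals3, a lectin of phagocytes and activated SCs, was at 1155, 1141, 1157 and 1028 CPM against 9.57, 6.46 and 8.01 CPM (7.11 ± 0.17). The amino acid transporter gene Slc36a2 (-6.42 ± 0.13), Ddn (-7.35 ± 0.18) and Fam178b (-6.76 ± 0.22) were among those that fell most, each with all crushed libraries under 3 CPM.

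Non-coding RNA genes fell more often and by less. Of the 953 that were downregulated, 863 (90.6%) fell by less than 4-fold and 26 (2.73%) by 8-fold or more. Of the 2449 downregulated protein-coding genes, 1790 (73.1%) fell by less than 4-fold and 246 by 8-fold or more. Among upregulated genes the classes were closer, with 34.0% of protein-coding and 30.4% of non-coding genes at 4-fold or more. The count of 953 rested in part on uncrushed replicate 3, the library of lowest depth, since 689 genes were called without it. It was 333 against contralateral nerves, where the median of all non-coding genes was -0.47. Of the 953 genes, 788 could be tested there, and 258 (27.1% of the 953) were downregulated there too. Of the 2449 downregulated protein-coding genes, 2165 could be tested there, and 1562 (63.8% of the 2449) were downregulated there too.

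The difference between the classes varied with the level of the genes. Under 2 CPM, averaged over the 7 libraries, 729 of 1710 protein-coding genes (42.6%) and 425 of 1043 non-coding genes (40.7%) were downregulated, with medians of -0.91 in both. At 2 to 16 CPM the shares were 968 of 5928 (16.3%) and 375 of 1016 (36.9%). At 16 CPM and over they were 752 of 6705 (11.2%) and 153 of 324 (47.2%), with medians of 0.29 and -0.96. Among genes that passed the filter, the classes were thus alike at low level and apart among abundant ones. Level and fold change come from the same 7 libraries, and the filter can keep a low gene through the group where it is higher. The shares under 2 CPM therefore describe the genes kept only. Without the filter, the medians over all levels were 0.001 for protein-coding and -0.668 for non-coding genes. Length and exon number went with differences among non-coding genes too. Of non-coding genes with a longest transcript of up to 200 nt, 123 of 315 (39.0%) were downregulated, of longer ones with 1 exon 314 of 974 (32.2%), and of longer ones with more exons 515 of 1092 (47.2%).

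The type of RNA also separated the genes. Of 541 long intergenic non-coding RNA (lincRNA) genes, 270 were downregulated and 16 upregulated (median -1.04, quartiles -1.32 and -0.58). Of 366 antisense genes, 184 were downregulated and 12 upregulated, and of 764 loci of the annotation class TEC, which await experimental checks, 256 and 26. Small nuclear RNAs (snRNAs) were the type with most upregulated genes in proportion, 15 of 43 with 9 downregulated, although near-identical copies share reads and these calls are uncertain. Of 170 small nucleolar RNA (snoRNA) genes 61 were downregulated and 10 upregulated, and of 22 genes of miscellaneous RNA 15 were downregulated.

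**Figure D4:**
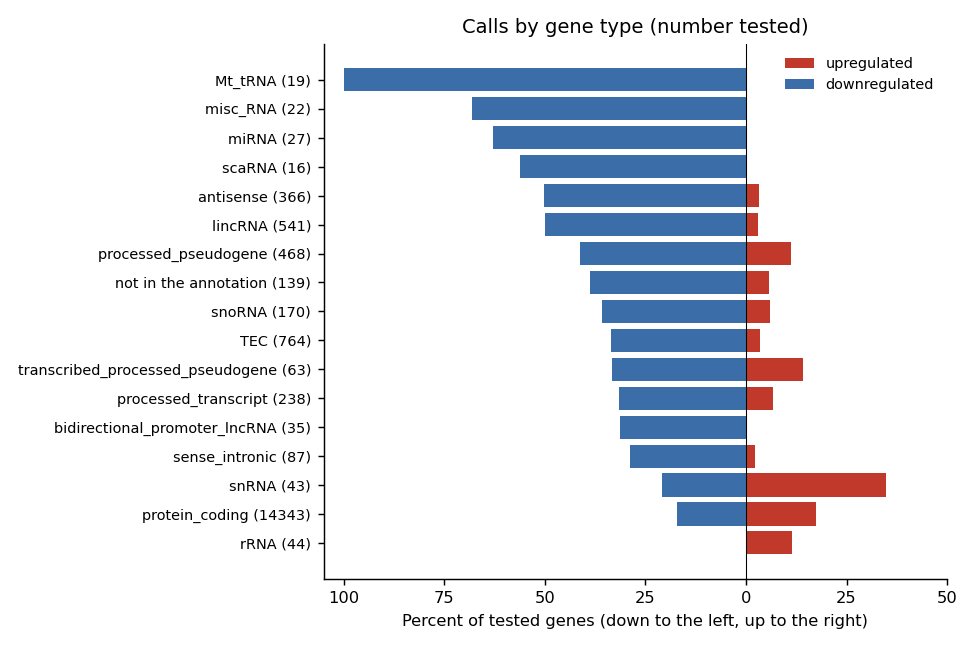
Share of tested genes that were upregulated or downregulated in crushed SNs (percent of tested genes), by gene type, with the number tested beside each type. LincRNA and antisense genes were downregulated in about equal share, all 19 tested mitochondrial transfer RNAs were downregulated, and snRNAs had the highest share upregulated among types with over 20 genes.

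As shares of all counts, protein-coding genes made up 68.7 ± 1.76% in crushed and 63.7 ± 3.42% in uncrushed libraries. Miscellaneous RNAs made up 2.73 ± 0.415% against 5.62 ± 1.74%, and TEC loci 1.68 ± 0.258% against 3.15 ± 0.887%. LincRNAs were at 7.32% against 6.67%, although 270 of their 541 tested genes were downregulated. The most abundant gene annotated as a lincRNA, Gm42418 on chromosome 17, was at 35530 to 44050 CPM in crushed and 11530 to 24820 CPM in uncrushed nerves (1.19 ± 0.25). Without uncrushed replicate 1 it was not called (0.98). A gene annotated as ribosomal RNA on the same chromosome was upregulated as well (1.13 ± 0.22). Whether reads at Gm42418 stem from ribosomal RNA was not tested. In exact permutation tests over 36 gene types (two-sided, 4 against 3 libraries), no share passed after adjustment. The smallest p that this design allows is 0.0286, which 18 types reached, and the lowest adjusted p was 0.0571.

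Taken by class, non-coding RNA genes held 28.9 ± 1.66% of counts in crushed and 32.7 ± 3.43% in uncrushed libraries, and the ranges overlapped (exact permutation p = 0.143, two-sided). With genes annotated as ribosomal RNA and mitochondrial genes left out of the total, they held 17.4, 15.01, 15.2 and 17.1% in the 4 crushed and 23.1, 17.8 and 23.05% in the 3 uncrushed libraries. Gm42418, annotated as a lincRNA, stayed in this total. The groups then did not overlap (p = 0.0286 in the same exact test, the smallest possible and unchanged by adjustment over 5 classes). Protein-coding genes held 80.9 ± 1.55% against 74.3 ± 3.50% on that scale.

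Among short RNAs, the Y RNAs Rny1 and Rny3, Rn7sk and the mitochondrial transfer RNAs were lower in crushed libraries. Shares of short RNAs also varied within groups. SnoRNAs held 0.147% of counts in crushed replicate 3 against 0.219 to 0.227% in the other crushed libraries. In uncrushed replicate 2 they held 0.140%, against 0.290% and 0.283% in replicates 1 and 3. How evenly the libraries recovered RNAs this short was not tested. Y RNAs bind the Ro60 protein and serve in RNA quality control, and Rn7sk RNA holds back the elongation factor P-TEFb. The sequences of both Y RNA genes of the mouse genome are shown with that of the mitochondrial transfer RNA for asparagine, which had the largest fall among those with a mean over 2 CPM. They were read from GRCm38 on the gene's strand, as DNA letters, and capitals mark the 12 bases that form the longest run shared by Rny1 and Rny3.
Rny1 (chr6:47788069-47788180, minus strand): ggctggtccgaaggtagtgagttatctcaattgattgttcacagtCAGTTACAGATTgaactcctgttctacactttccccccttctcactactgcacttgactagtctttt
Rny3 (chr6:47781624-47781725, plus strand): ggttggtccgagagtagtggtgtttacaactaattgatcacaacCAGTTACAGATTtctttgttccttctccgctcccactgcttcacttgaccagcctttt
mt-Tn (chrM:5089-5159, minus strand): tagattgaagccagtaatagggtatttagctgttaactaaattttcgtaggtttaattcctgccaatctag

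Rny1 was at 118, 131, 76.3 and 139 CPM in crushed libraries and at 642, 356 and 1071 CPM in uncrushed ones (-2.57 ± 0.30, adjusted p = 1.2e-05, edgeR). Rny3, whose gene lies on the other strand of the same stretch of chromosome 6, was at 354 to 643 CPM against 1882 to 4770 CPM (-2.48 ± 0.29). Uncrushed replicate 3 held the most of both, and the groups did not overlap. Rn7sk, the nuclear RNA just described, was at 4411, 3817, 3358 and 4231 CPM against 15940, 8186 and 11120 CPM (-1.57 ± 0.21). With all 11 libraries scaled together, Rny1 was at 76.4 to 134 CPM in crushed, 361 to 1127 CPM in uncrushed and 296 to 517 CPM in contralateral nerves, and Rn7sk was at 3361 to 4336, 8297 to 16210 and 8948 to 9652 CPM.

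Some other short RNAs were not called. Rmrp, the RNA of the processing enzyme RNase MRP, was at 355 to 739 CPM against 393 to 860 CPM (-0.28 ± 0.26), and Rpph1, the RNA of RNase P, at 1597 to 2174 CPM against 1550 to 4173 CPM (-0.50 ± 0.26). The groups overlapped for both. Of 44 ribosomal RNA genes tested, 5 were upregulated and the other 39 were not called (median -0.42), and many of these copies share reads.

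All 19 mitochondrial transfer RNAs tested were downregulated, with log2 fold changes from -2.63 to -1.08, and for 16 of them the groups did not overlap. mt-Tg, the most abundant, was at 341, 208, 157 and 217 CPM against 1380, 773 and 1650 CPM (-2.46 ± 0.27). mt-Tn was at 3.18 to 6.91 CPM against 18.9 to 49.0 CPM (-2.60 ± 0.30). None of the 13 mitochondrial protein-coding genes, which are cut from the same long transcripts, was called by edgeR or DESeq2. Their log2 fold changes ran from -0.37 to 0.89, and 3 had an unadjusted p under 0.05, all higher in crushed nerves. Against contralateral nerves the transfer RNAs ran from -1.98 to -0.40.

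**Figure D5:**
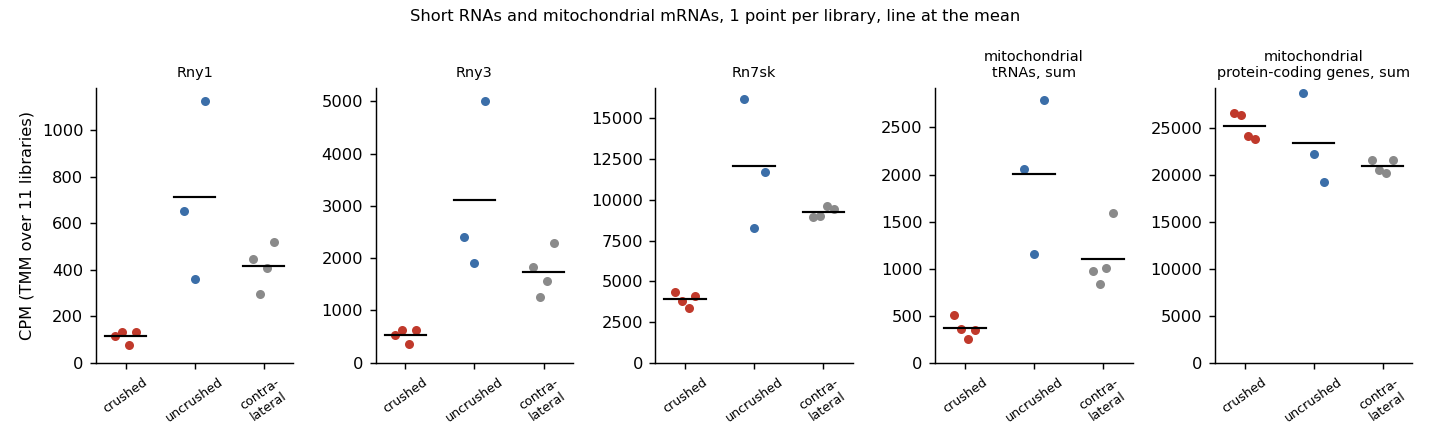
Levels in CPM (linear axes from 0, scaled over 11 libraries, lines at group means) of Rny1, Rny3, Rn7sk, the sum of mitochondrial transfer RNAs and the sum of mitochondrial protein-coding genes in each crushed, uncrushed and contralateral library. The crushed points lie under both other groups for the 4 short RNA values, and among the uncrushed points for the mitochondrial protein-coding sum.

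Short RNAs of the nucleus also rose in places. The U3 snoRNA genes Rnu3b1, Rnu3b2, Rnu3b3 and Rnu3b4, which serve ribosomal RNA processing, carried identical values and so count as 1 measurement, at 88.9 CPM in crushed and 30.8 CPM in uncrushed nerves on average (a log2 fold change of 1.498). The snRNA genes Gm24305 and Gm26316 were at 0 in all 3 uncrushed libraries. They were at 5.98 to 11.2 CPM and 2.61 to 16.4 CPM in crushed ones, at least 82.6-fold and 90.6-fold higher against 3 counts over the group. Gm25360 rose from 3.29 to 6.91 CPM to 31.1 to 54.1 CPM (3.12 ± 0.25). Reads of such genes can stem from near-identical copies elsewhere, so the locus is uncertain.

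Long non-coding RNAs of known function were mixed. Of 35 tested, 4 were upregulated and 5 downregulated, with a median of 0.04. Malat1, a nuclear RNA of speckles and the most abundant of them, was at 14040, 10050, 10670 and 10120 CPM against 21030, 20340 and 15030 CPM and stayed under the 2-fold limit (-0.75 ± 0.18), although it passed it against contralateral nerves (-1.10). Neat1, the scaffold of paraspeckles, was not called either (-0.48 ± 0.19), nor were the imprinted RNAs Meg3 (0.04 ± 0.17) and H19 (0.44 ± 0.19). The upregulated genes were Pvt1, Snhg6 (1.52 ± 0.23), Mir17hg and Mir22hg. The downregulated ones were Trp53cor1, Snhg18 (-1.58 ± 0.19), Rn7sk, Snhg14 (-1.38 ± 0.15) and Lncpint (-1.18 ± 0.18), the last being induced by p53 as Trp53cor1 is. Snhg14 was not called against contralateral nerves (-0.85).

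Some of these RNAs are neighbours of protein-coding genes that changed (GRCm38). Trp53cor1 (chr17:29057430-29079179, minus strand) lies 11796 bases upstream of Cdkn1a and fell like it, from 5.45 to 6.95 CPM to 0.508 to 1.01 CPM (-2.87 ± 0.26, against -3.06 for Cdkn1a). Pvt1 (chr15:62037986-62378096, plus strand) starts 47611 bases after Myc, and both rose, Pvt1 from 1.51 to 2.88 CPM to 6.07 to 11.5 CPM (1.97 ± 0.30) and Myc from 2.24 to 3.28 CPM to 19.5 to 24.4 CPM (2.91 ± 0.16). Lockd (chr6:134929092-134956798, plus strand) starts 3578 bases after Cdkn1b and moved the other way. It rose from 0 to 0.620 CPM to 2.80 to 3.62 CPM (3.05 ± 0.47) while Cdkn1b fell.

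Antisense genes lie across a protein-coding gene on the other strand. Runx2os1 (chr17:44735845-44737612, plus strand) lies within Runx2, the transcription factor gene. Runx2os1 was at 1.98 to 2.24 CPM against 0 to 0.122 CPM (4.53 ± 0.52), and Runx2 at 98.4 to 133 CPM against 3.90 to 5.93 CPM (4.58 ± 0.17). Kank4os (chr4:98793768-98798900, plus strand) rose from 0.266 to 1.12 CPM to 3.79 to 4.39 CPM (2.92 ± 0.38), while Kank4, across which it lies, fell from 182 to 200.2 CPM to 14.9 to 20.03 CPM (-3.43 ± 0.11). How the authors' counting used strand was not stated in the sources used here, so reads of a gene and of its antisense partner may be mixed.

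Of 366 antisense genes tested, 290 overlapped a tested protein-coding gene on the other strand. Where that gene was upregulated (39 pairs), 3 antisense genes were upregulated and 16 downregulated (41.0%), with a median of -0.97. Where it was not called (202 pairs), 6 were upregulated and 93 downregulated (46.0%), with a median of -0.98. Where it was downregulated (49 pairs), 1 was upregulated and 32 were downregulated (65.3%), with a median of -1.13. Antisense genes thus lay below 0 at the median in all 3 sets.

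Large changes among other non-coding genes with a mean over 2 CPM included 2 falls of genes listed as processed transcripts. Sptbn5, at the locus of a spectrin gene, was at 20.5, 11.5, 13.2 and 10.8 CPM against 530, 458 and 384 CPM (-5.03 ± 0.21). B230206H07Rik fell from 85.6 to 141 CPM to 2.80 to 6.23 CPM (-4.62 ± 0.22). The antisense gene Gm1992 fell from 12.2 to 32.8 CPM to 0.305 to 0.654 CPM (-5.53 ± 0.42). In the other direction, the lincRNA gene Gm26894 rose from 0.886 to 1.46 CPM to 9.96 to 16.2 CPM (3.31 ± 0.27), the processed transcript AI662270 from 0.976 to 1.51 CPM to 8.16 to 13.8 CPM (3.04 ± 0.26), and the antisense gene F630028O10Rik from 3.37 to 5.49 CPM to 18.6 to 33.9 CPM (2.65 ± 0.24). AI506816, another processed transcript, had a smaller change at a higher level, from 30.2 to 33.5 CPM to 160 to 180 CPM (2.39 ± 0.10). These 7 genes were called in the same direction against contralateral nerves. Gm26894 (chr5:28466374-28480973, plus strand) overlaps Shh (chr5:28456815-28467256, minus strand), which also rose, so reads of the 2 genes may be mixed.

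The upregulated Mir17hg and Mir22hg are host genes of microRNAs, short RNAs that repress messenger RNAs through their seed. Host genes as a class were not counted. Mir17hg, from which the miR-17-92 cluster is cut, was at 3.20, 4.44, 3.27 and 4.47 CPM against 1.15, 1.34 and 1.76 CPM (1.47 ± 0.27), and against contralateral nerves its log2 fold change was 0.63. Mir22hg was at 7.75 to 13.3 CPM against 3.78 to 5.58 CPM (1.24 ± 0.22). The mature RNAs themselves are too short for these libraries and were not measured. Those of 5 arms are shown from RefSeq (GRCm38.p6) with the seed, bases 2 to 8, in capitals. miR-17-5p and miR-20a-5p share a seed, and so do miR-19a-3p and miR-19b-3p.
mmu-miR-17-5p: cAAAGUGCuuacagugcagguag
mmu-miR-20a-5p: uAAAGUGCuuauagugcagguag
mmu-miR-19a-3p: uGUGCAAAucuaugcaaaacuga
mmu-miR-19b-3p: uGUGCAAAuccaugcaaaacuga
mmu-miR-22-3p: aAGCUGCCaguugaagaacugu

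Of 2207 genes listed as microRNA genes, 1919 had 0 counts in all 7 libraries and 27 could be tested. Of these, 17 were downregulated and the other 10 not called, with identical values in some copies, so that the 17 came to 13 distinct measurements. Reads at such loci stem from precursors or longer transcripts. Mir1983 was at 2.34 to 3.95 CPM against 4.39 to 19.7 CPM (-1.71 ± 0.41), and without uncrushed replicate 3 the call was lost (-0.94). Against contralateral nerves its log2 fold change was -1.04. The downregulated loci Gm44456 (-0.77), Gm24303 (-0.82), Gm26269 (-0.75) and Gm28017 (-0.76) stayed under the 2-fold limit against contralateral nerves. The proteins that make microRNAs were steadier. Of 15 genes tested, 1 was called, Lin28b, an inhibitor of let-7 processing, at 0.758 to 1.53 CPM against 1.68 to 3.85 CPM (-1.38 ± 0.36). Against contralateral nerves Lin28b was not called (-0.89). Drosha (-0.05 ± 0.09), Dicer1 (0.28 ± 0.12), Dgcr8 (0.68 ± 0.10) and Ago2 (0.52 ± 0.10), which cut precursors or carry the mature strand, were within the 2-fold limit.

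Pseudogenes were counted apart. Of 468 processed pseudogenes, copies of spliced messenger RNAs, 193 were downregulated and 52 upregulated (median -0.90). Gm13502 fell from 47.5, 51.1 and 46.6 CPM to 2.27, 1.98, 1.87 and 2.44 CPM (-4.50 ± 0.12). Clec7a, listed as a polymorphic pseudogene although it encodes the receptor Dectin-1 of macrophages, rose from 2.39 to 3.69 CPM to 7.49 to 19.5 CPM (2.29 ± 0.32). Reads of pseudogenes can stem from their parent genes, and RSEM divides reads between such copies, so these calls are uncertain.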

How the data were processed

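Total RNA of nerve tissue was sequenced (RNA-seq), in crushed nerves from the piece distal to the injury. The length taken of uncrushed nerves, and whether outer layers were removed before sequencing, were not stated in the methods. According to their methods and processing notes, the authors used Trimmomatic for trimming, STAR for alignment and RSEM for quantification on Ensembl transcripts of the mouse genome GRCm38, and they deposited expected counts, TPM and FPKM for each transcript. The labels name a SMARTer pico stranded kit for these libraries, while the study's methods name another kit with ribosomal RNA depletion, and how the counting used strand was not given in the sources used here. The study's methods give as many mice as libraries, 4 with crushed and 3 with uncrushed nerves.

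For each gene the deposited expected counts of its transcripts were added and the sum was rounded. The deposited TPM and FPKM values were used for no test. Gene types came from the GENCODE annotation of GRCm38, which gave 21535 of the 43068 genes as protein-coding, 14009 as non-coding RNA, 6414 as pseudogenes and 493 as immunoglobulin or T cell receptor segments, while 617 were not in it. Replicates of a group differed beyond sampling noise (chi-square per degree of freedom from 6.63 to 26.3), so none was counted as deposited more than once. The 4 crushed and 3 uncrushed libraries were fitted alone with edgeR 4.0.16 (R 4.3.3) by the quasi-likelihood test, with filterByExpr at a minimum count of 10, TMM factors (0.926 to 1.06) and Benjamini-Hochberg adjustment over all 17433 genes. Titles number the replicates, but the methods count the mice of each group apart and same-numbered libraries did not all deviate together (correlations 0.09, 0.04 and -0.18), so no replicate block was used. The library titled uncrushed 3 bears the number 4 in its description, and with that number its correlation was 0.27 (with crushed replicate 4). Shares of counts were tested by exact permutation over libraries, and the contralateral nerves served as an alternative control. On simulated counts with 200 changed genes the test called 44% of 2-fold and all larger changes, with 5 unchanged genes called. A true 2-fold change lies at the threshold itself, and 80% of these passed the adjusted p. The simulation used the same dispersion for every gene and fewer changed genes than were called here, so its rates need not hold for the real counts. The alternatives were RLE factors, library size only, factors from protein-coding genes, other filters, DESeq2 1.42.0, edgeR's exact test, the replicate block with either numbering (the second added after the data were seen), 1 fit over 11 libraries, a stricter adjusted p of 0.01 and leaving out each library.

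The members, gene lists and tests were chosen with earlier results of these data known. Genes were named by rule: of each gene type the 5 (protein-coding 10) largest changes in each direction among called genes whose groups do not overlap and whose mean log2 CPM reached 1, of each list up to 4 called genes in each direction, any tested gene of the lists of long non-coding RNAs and microRNA biogenesis, and called microRNA genes. Members that were not called were named where a count needed them. These genes were named after their values were seen: Bdnf, Ccnb2, Cd163, Cd247, Cd3d, Cd8a, Cdk1, Cdkn2a, Cdkn2d, Cntfr, Col1a1, Col1a2, Col3a1, Ebp, Erbb2, Erbb3, Fabp4, Gfap, Gldn, Gm42418, Jun, Kank4, Kit, Lcn2, Mertk, Myc, Rmrp, Rpph1, Runx2, Runx2os1, S100a8, S100a9, Sox10, Srebf1, Srebf2 and Tyms. The choice of promoters, transfer RNA and microRNA arms to print was also made then. Results for some genes are not reported here.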

Additional observations from a re-analysis of the deposited data

Results flagged for a closer look

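Each value in the 4 crushed libraries was checked for a library far from the other three, as the gap to the nearest other library over the whole range, with Dixon's 95% critical value for 4 libraries as the limit. Of 206 values checked, 18 passed, where chance alone would mark about 1 in 20. Crushed replicate 1 was the library apart in 10 of the 18.

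Crushed replicate 1 stood above the others for the summed neurotrophic ligands (678 CPM against 512 to 532 CPM, ratio 0.882) and the summed adipocyte markers (44.5 CPM against 31.5 to 33.1 CPM, ratio 0.877). The same held for Malat1 (14040 CPM against 10050 to 10670 CPM, ratio 0.846), Neat1 (607 CPM against 354 to 389 CPM, ratio 0.862), Btc (122 CPM against 97.8 to 102 CPM, ratio 0.832) and Cdkn1a (14.3 CPM against 10.2 to 10.7 CPM, ratio 0.875). It was also highest for Fam178b (2.69 CPM against 1.48 to 1.53 CPM, ratio 0.964) and Gal3st1 (5.89 CPM against 3.964 to 4.196 CPM, ratio 0.88). It was lowest for Lama2 (129 CPM against 175 to 181 CPM, ratio 0.88) and Thy1 (39.6 CPM against 71.9 to 76.3 CPM, ratio 0.88). Each of these genes other than Malat1 and Neat1 was called, and all of those kept the call when crushed replicate 1 was left out.

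Crushed replicate 2 was highest for Arg1 (130 CPM against 33.8 to 49.3 CPM, ratio 0.839), Fbln2 (229 CPM against 165 to 173 CPM, ratio 0.876) and Dicer1 (68.6 CPM against 58.0 to 59.8 CPM, ratio 0.834), and lowest for Cxcl12 (24.2 CPM against 26.2 to 26.4 CPM, ratio 0.888) and for lincRNAs as a share of counts (6.64% against 7.48 to 7.64%, ratio 0.84). Crushed replicate 3 had the lowest share of snoRNAs (0.147% against 0.219 to 0.227%, ratio 0.904). Crushed replicate 4 was lowest for the summed SC transcription factors (1665 CPM against 1877 to 1912 CPM, ratio 0.858) and for Lgals3 (1028 CPM against 1141 to 1157 CPM, ratio 0.879).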

How the results depend on the processing

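Non-coding genes were more often downregulated than upregulated under all 19 alternatives. Protein-coding genes did not keep one order. More rose than fell without a filter on low counts (3438 against 2405) and with library size only (2884 against 2123), and fewer did with factors from protein-coding genes (2149 against 2825) and in 1 fit over all 11 libraries (2195 against 3048). The 2 scalings moved the median of all genes by 0.11 and -0.13 on the log2 scale. Without a filter, 183 non-coding genes and 114 pseudogenes were upregulated and 520 pseudogenes downregulated. With at least 10 counts in every library, a filter that removes genes absent from 1 group, the non-coding counts were 40 up and 585 down and the pseudogene counts 29 and 94. One fit over all 11 libraries called 343 pseudogenes down, and with contralateral nerves as control 333 non-coding genes and 46 pseudogenes were down. The cause of these 2 differences was not tested. With the replicate block, 2533 protein-coding genes rose and 2527 fell, beside 103 and 994 non-coding genes and 65 and 238 pseudogenes, and the call of Tyms was gained (-1.02). With the replicate block numbered by the descriptions, an alternative added after the data were seen, these counts were 2488 and 2393, 103 and 856, and 63 and 216, and the call of Cxcr2 was lost (-0.99). Leaving out 1 library gave 2358 to 2711 protein-coding genes up and 2277 to 2636 down, 82 to 123 and 689 to 1105 non-coding genes, and 50 to 72 and 197 to 293 pseudogenes. No share of counts by gene type passed under any setting run. With 1 library left out, the exact permutation test has too few arrangements of libraries for any share to pass. Those settings therefore could not decide whether a share changed. Of 140 called genes named here, 125 kept the call under every alternative that tested them. The other 15 included Lncpint (-0.96) and Cd3d (-1.03), both lost without the filter, and Cxcl12 (-0.96), Col1a2 (-0.94) and Cxcr2 (-0.91), lost with library size only. Many named genes were chosen for large changes in these same libraries, so their count does not describe all calls. The filter of 10 counts in every library tested 121 of the 165 named genes. Over all genes, 1864 of 3686 falls (50.6%) and 2208 of 2673 rises (82.6%) were also called against contralateral nerves. Of 54 counts of list members, 27 stayed within 1.5 times the main value under all alternatives. Depth limits genes under 0.453 CPM in the shallowest library.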
